A study of Rattus norvegicus with 16 samples.

Results

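Retinal RNA of newborn rats was measured for 10 genes that detoxify reactive molecules or hold metals: 3 glutathione transferases (Gsta4, Gstm5 and Gstp1), the metallothionein Mt1, the ferritin heavy chain Fth1, the peroxiredoxin Prdx1, haem oxygenase Hmox1, the quinone reductase Nqo1, the glutathione synthesis subunit Gclm and the thioredoxin reductase Txnrd1. They are 10 of the 14324 genes that could be named with 1 symbol among the 27342 probe sets of the array. The genes were listed with earlier results of these arrays known, and where a gene had several probe sets, the set was chosen by its mean log2 value over the 16 arrays, the highest being taken; those means lay between 3.99 and 10.31. Test results given for them come from a fit over all 14324 genes and are not independent evidence about the choice of these genes.

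The 8 groups combined 2 strains, 2 exposures and 2 ages, with 2 arrays in each. Sprague Dawley (SD) and Fischer 344 (F344) rats, known as susceptible and resistant to oxygen-induced retinopathy in that order, were kept with their mothers in cyclic hyperoxia or in room air from within 12 h of birth to post-natal day 5 or 6. Cyclic hyperoxia was 24 h at 80% oxygen alternating with 24 h at 21% oxygen, and the labels do not state in which phase the retinas of each day were taken. No gene was altered and no drug was given in any group. Each array holds a pool of retinal RNA that was first extracted from single rats. The design text speaks of 3 rats from 2 litters per condition and does not say whether that is the content of each pool, so p-values measure the spread between pools. In pooled whole retina, fewer cells of a type and less RNA per cell cannot be told apart.

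These genes share a biology of electrophiles, oxidants and metals. Glutathione transferases couple glutathione to reactive compounds, with the alpha enzyme Gsta4 acting on the lipid peroxidation product 4-hydroxynonenal, which is made readily from the polyunsaturated membranes of photoreceptors. Mt1 binds zinc and copper through its cysteines and is transcribed when the zinc sensor MTF1 occupies metal response elements, while Fth1 oxidises and stores iron and is controlled mainly at translation by iron regulatory proteins. Prdx1 reduces hydrogen peroxide, and Hmox1, Nqo1, Gclm and Txnrd1 are widely used readouts of NRF2, the transcription factor that binds antioxidant response elements (AREs) once released from KEAP1.

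All values are log2 expression as deposited, so a difference of 1 is a doubling, and they include background because no probe set reads 0. The lowest array median, 5.45, serves as a floor. Hmox1 stayed between 4.18 and 4.59 and Nqo1 between 3.76 and 4.32, under that floor on each of the 16 arrays, so that neither has a level here above what dim probe sets give. Rod, Muller glia, and amacrine, horizontal and ganglion cell markers lay above the floor on average for 10 of 10, 9 of 9 and 12 of 13 measured genes, as the retina label calls for, against 1 of 6 lens markers.

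Some arrays stood apart. The replicate 2 array of F344 hyperoxia day 6 had the narrowest interquartile range, 2.81 against up to 3.19 elsewhere, the highest median, 5.52, and 70 genes over 2-fold from its partner, against 0 to 34 in the other groups. The replicate 1 array of F344 room air day 5 had 32.0% of 100 probe sets that separate the strains in the other groups past the midpoint towards SD, against 11.0% on its partner and between 0 and 11.0% on the other arrays. The sets were chosen for each array without its own group. Arrays of the other groups were thus read on 71 to 85 sets, which had to separate the replicate 1 array from SD too, so these shares are not on the same sets. Where leaving out one of these arrays moved a member's difference by over 1.5 times or changed a call, the value without it stands beside the result.

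The proximal promoters of Gsta4, Gstm5, Prdx1 and Mt1, which were called under hyperoxia on day 6, and of Gstp1 and the NRF2 target Gclm, which were not, are shown first so that those with and without the elements named above can be read side by side. RefSeq promoter windows of the assembly GRCr8, 250 bases before to 50 bases after the annotated start site, were matched by Entrez identifier for 8 of the 10 genes. None was found for Fth1 and Hmox1. Capitals mark each ARE core (TGACNNNGC on either strand), of which Gsta4 has none, except in Mt1, where they mark each metal response element core (MRE, TGCACNC or TGCGCNC on either strand).
Gsta4, chr8:87947015-87947314, plus strand: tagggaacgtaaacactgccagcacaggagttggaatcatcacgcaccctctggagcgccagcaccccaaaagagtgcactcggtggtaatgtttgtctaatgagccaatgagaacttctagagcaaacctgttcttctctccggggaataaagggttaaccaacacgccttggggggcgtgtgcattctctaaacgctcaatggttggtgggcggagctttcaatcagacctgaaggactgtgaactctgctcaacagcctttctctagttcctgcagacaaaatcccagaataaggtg
Gstm5, chr2:198219519-198219818, plus strand: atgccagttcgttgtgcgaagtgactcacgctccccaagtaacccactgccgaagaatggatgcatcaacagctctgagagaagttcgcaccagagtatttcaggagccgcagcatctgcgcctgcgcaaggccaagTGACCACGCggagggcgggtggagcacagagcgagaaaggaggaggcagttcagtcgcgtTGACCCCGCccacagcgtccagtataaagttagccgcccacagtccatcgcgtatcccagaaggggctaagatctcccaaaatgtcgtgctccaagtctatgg
Gstp1, chr1:210769656-210769955, minus strand: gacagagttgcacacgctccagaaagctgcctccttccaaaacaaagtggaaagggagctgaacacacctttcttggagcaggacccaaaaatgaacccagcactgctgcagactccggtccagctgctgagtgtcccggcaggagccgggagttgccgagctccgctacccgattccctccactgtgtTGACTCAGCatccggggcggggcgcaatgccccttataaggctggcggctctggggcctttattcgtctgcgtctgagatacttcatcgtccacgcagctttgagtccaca
Prdx1, chr5:135383656-135383955, plus strand: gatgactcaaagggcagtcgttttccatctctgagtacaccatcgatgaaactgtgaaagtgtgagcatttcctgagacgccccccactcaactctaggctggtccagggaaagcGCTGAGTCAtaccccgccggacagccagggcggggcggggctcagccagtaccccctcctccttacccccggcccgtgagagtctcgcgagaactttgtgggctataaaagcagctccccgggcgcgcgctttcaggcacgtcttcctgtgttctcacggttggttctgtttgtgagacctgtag
Gclm, chr2:213031885-213032184, plus strand: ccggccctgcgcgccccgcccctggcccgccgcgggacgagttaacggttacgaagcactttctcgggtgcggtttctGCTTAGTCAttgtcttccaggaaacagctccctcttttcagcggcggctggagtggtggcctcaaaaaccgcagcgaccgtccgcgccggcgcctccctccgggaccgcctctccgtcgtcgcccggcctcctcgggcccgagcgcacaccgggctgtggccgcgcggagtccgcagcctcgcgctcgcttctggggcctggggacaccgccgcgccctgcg
Mt1, chr19:10832926-10833225, minus strand: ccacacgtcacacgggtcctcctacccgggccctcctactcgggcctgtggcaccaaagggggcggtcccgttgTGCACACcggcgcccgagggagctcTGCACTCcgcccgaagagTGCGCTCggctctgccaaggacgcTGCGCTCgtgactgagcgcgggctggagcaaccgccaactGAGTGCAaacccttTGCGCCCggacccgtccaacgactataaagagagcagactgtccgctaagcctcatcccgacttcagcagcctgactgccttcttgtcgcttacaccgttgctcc

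An ARE core was found in the windows of 6 of the 8 genes, namely Gstm5, Gstp1, Mt1, Prdx1, Gclm and the second start site of Txnrd1, and not in those of Gsta4 and Nqo1. Gstm5 had 2 of them. Over all 33469 RefSeq promoter windows, 12.06% held an ARE core. The AP-1 site TGACTCA, which 4.631% of all windows held, overlapped the ARE core in Gstp1 and Prdx1. Mt1 had 6 MRE cores, which began at -176 to -55 from its start site; 24.23% of all windows held at least 1 and 41 windows, 0.1225%, held 5 or more. The HIF core ACGTG, which 19.25% of all windows held, was present in Mt1 and Prdx1. These are matches of letters and not shown binding sites, and where no core is found, only these letters are missing from this window.

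**Figure D1:**
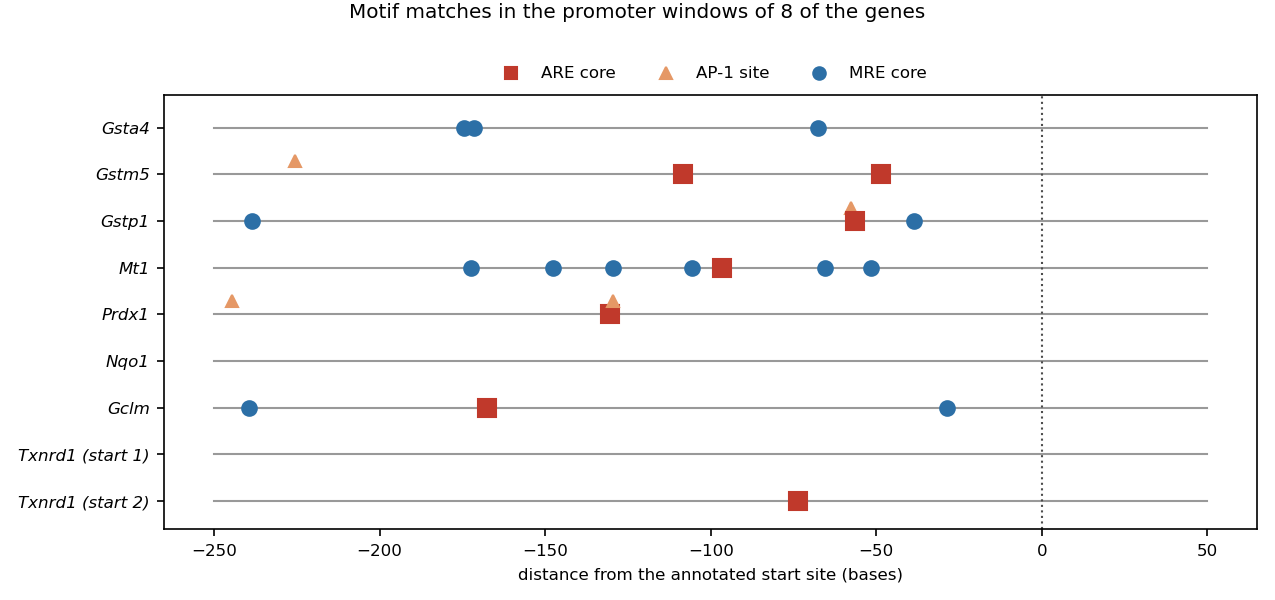
Matches to the ARE core, the AP-1 site and the MRE core in the RefSeq promoter windows of 8 of the genes, plotted by distance in bases from the annotated start site (dotted line). ARE cores lie in 6 of the 8 genes, Mt1 has 6 MRE cores, and Nqo1 and the first start site of Txnrd1 have no match.

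On day 6, SD retinas exposed to cyclic hyperoxia held more transcript of 5 of the 10 genes than those kept in room air, at adjusted p under 0.05 (limma, Benjamini-Hochberg over all genes). Gstm5 was raised 2.52-fold, Fth1 2.19-fold, Gsta4 2.01-fold, Mt1 1.76-fold and Prdx1 1.60-fold. No member was called lower. Of all genes tested, 2.79% were called in the same comparison, 319 higher and 81 lower. The median difference was 0.63 over the 10 genes and -0.01 over all genes on the log2 scale.

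Among the glutathione transferases, the mu class enzyme Gstm5 read 8.68 and 8.56 under hyperoxia, against 7.27 and 7.32 in room air on the SD day 6 arrays. The arrays of the exposures lay well apart, with the hyperoxia pair the highest of the study for this gene. The difference was 1.33 ± 0.19 (SE; n = 2 arrays each; adjusted p = 0.00758 by limma). Gsta4 read 7.90 and 8.02 under hyperoxia, against 6.86 and 7.04 in room air, again without overlap, and differed by 1.01 ± 0.22 (SE; adjusted p = 0.0276 by limma). For Gstp1, the pi class enzyme, hyperoxia gave 7.76 and 7.68, against 7.07 and 7.24 in room air. Its arrays did not overlap either, but the difference of 0.57 ± 0.17 (SE) did not pass (adjusted p = 0.0767 by limma).

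Of the metal-binding genes, Mt1 read 9.06 and 8.99 in SD hyperoxia day 6 pools, against 8.26 and 8.17 in room air, a difference of 0.82 ± 0.13 (SE; adjusted p = 0.0123 by limma). The spread within each pair was small beside that gap. Fth1 read 10.52 and 10.48 under hyperoxia, against 9.29 and 9.46 in room air, and differed by 1.13 ± 0.25 (SE; adjusted p = 0.0247 by limma). Its exposures were likewise separate on every array. Prdx1, the peroxide-reducing enzyme, read 10.63 and 10.61 under hyperoxia, against 9.82 and 10.06 in room air, with a difference of 0.68 ± 0.16 (SE; adjusted p = 0.0303 by limma).

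The classical NRF2 readouts did not pass in SD day 6 retinas. Gclm, the regulatory subunit of the enzyme that makes gamma-glutamylcysteine, read 6.21 and 6.42 under hyperoxia, against 6.81 and 6.04 in room air, so that the room air arrays lay on either side of the hyperoxia pair. Its difference was -0.11, with a 95% confidence interval of -0.51 to 0.28. Txnrd1, which keeps thioredoxin reduced, read 6.50 and 6.59 under hyperoxia, against 6.52 and 6.15 in room air, and differed by 0.21, with an interval of -0.14 to 0.57. For Hmox1 and Nqo1, both under the floor, the differences were 0.09 and 0.08.

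**Figure D2:**
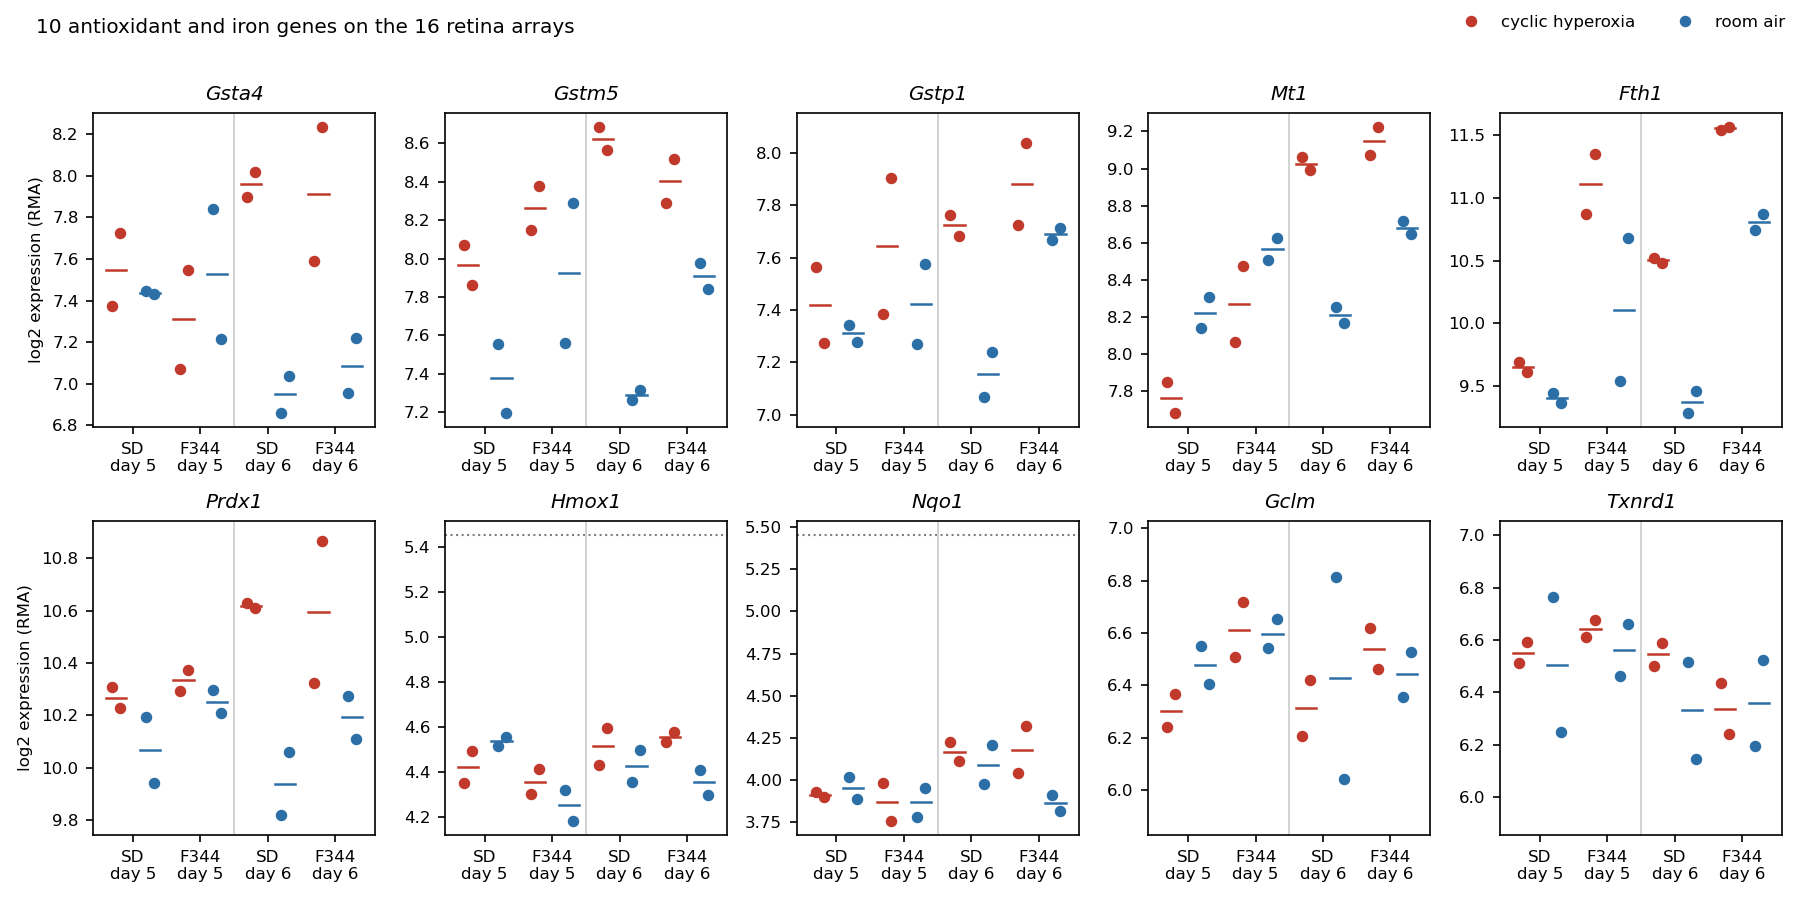
Log2 expression of the 10 genes on the 16 arrays, 1 panel per gene, with cyclic hyperoxia left of room air in each strain and day; dots are arrays and bars are group means of 2 arrays. On day 6 the hyperoxia arrays of Gsta4, Gstm5, Mt1, Fth1 and Prdx1 sit above the room air arrays in both strains, and Hmox1 and Nqo1 lie under the dotted floor of 5.45.

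The SD day 6 calls depended on single arrays. Without either SD hyperoxia day 6 array, or without the replicate 1 array of SD room air day 6, 0 of the 10 genes and 0 of all genes were called, and without the replicate 2 array of SD room air day 6, 3 of the 10 and 221 of all genes were, with Gsta4 and Fth1 lost. Without either F344 hyperoxia day 6 array, 6 were called, Gstp1 included, since the spread is shared over all groups.

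In F344 retinas on day 6, Gsta4, Gstm5, Mt1, Fth1 and Prdx1 again lay higher under hyperoxia on every array, by smaller amounts than in SD. Of the 10 genes 0 passed limma's adjusted threshold, while 1.19% of all genes were called. Those named and Nqo1 (0.32, under the floor), 6 in all, had an unadjusted p under 0.05 by limma, as had 2522 of all 14324 genes. Arrays of 8 of the 10 did not overlap, with Hmox1 and Nqo1, both under the floor, included. The share of all genes without overlap was not counted, so this count is not a result about these genes. Gsta4 read 7.59 and 8.23 under hyperoxia, against 6.96 and 7.22 in room air, and differed by 0.82 ± 0.22 (SE; adjusted p = 0.0728). Fth1 read 11.54 and 11.56 under hyperoxia, against 10.74 and 10.87 in room air, and differed by 0.74 ± 0.25 (SE; adjusted p = 0.128). The F344 hyperoxia pair for Fth1 was the highest of the 8 groups, as it was for Mt1.

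Gstm5 read 8.29 and 8.52 in F344 hyperoxia day 6 pools, against 7.98 and 7.84 in room air, a difference of 0.49 (adjusted p = 0.194 by limma). Mt1 read 9.07 and 9.22 under hyperoxia, against 8.72 and 8.65 in room air, a difference of 0.47 (adjusted p = 0.0851 by limma). Prdx1 read 10.32 and 10.87 under hyperoxia, against 10.27 and 10.11 in room air, a difference of 0.40 (adjusted p = 0.193 by limma). Its higher hyperoxia value is that of the replicate 2 array that stood apart.

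Without the replicate 2 array of F344 hyperoxia day 6, 0 of the 10 genes were called in F344 on day 6, and the differences were 0.50 for Gsta4, 0.13 for Prdx1, 0.39 for Mt1, 0.38 for Gstm5 and 0.73 for Fth1, with adjusted p between 0.285 and 0.762 by limma. Gsta4 and Prdx1 thus moved by over 1.5 times with that array. Without its replicate 1 partner, 3 were, namely Gsta4 at 1.15, Prdx1 at 0.68 and Mt1 at 0.54, among 1621 of all genes. Leaving out either F344 room air day 5 array, which enters only through the shared spread, gave 1 call, Fth1 at 0.74 with an adjusted p of 0.0276 by limma.

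The difference between strains in the day 6 oxygen effect was tested as such, and 0 of the 10 genes passed, with 1 at an unadjusted p under 0.05; 0.0559% of all genes were called. That 1 was Gstm5, whose effect was larger in SD than in F344 retinas by 0.84 on the log2 scale, with a 95% confidence interval of 0.27 to 1.41 and an adjusted p of 0.220 by limma. Without the replicate 2 array of F344 hyperoxia day 6 it was 0.96 (adjusted p = 0.132). For Fth1 the SD effect minus the F344 effect was 0.38, with an interval of -0.35 to 1.12, and for Gsta4 it was 0.18, with an interval of -0.49 to 0.86, or 0.51 without that array. The intervals of Fth1 and Gsta4 hold differences of either sign, so the strains are not shown to respond alike.

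Averaged over both strains on day 6, hyperoxia raised Gsta4 by 0.92, Gstm5 by 0.91, Fth1 by 0.94, Mt1 by 0.64 and Prdx1 by 0.54 on the log2 scale, 5 of the 10 genes, with adjusted p between 0.00325 and 0.0128 (limma). The share of all genes called was 6.74%. Gstp1 was at 0.38 (adjusted p = 0.0646 by limma). Leaving out the 2 arrays that stood apart left 5 calls, and leaving out the replicate 1 array of SD hyperoxia day 6 left 3, without Fth1 and Prdx1, among 53 of all genes. Prdx1 was also lost without the replicate 2 array of F344 room air day 6.

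**Figure D3:**
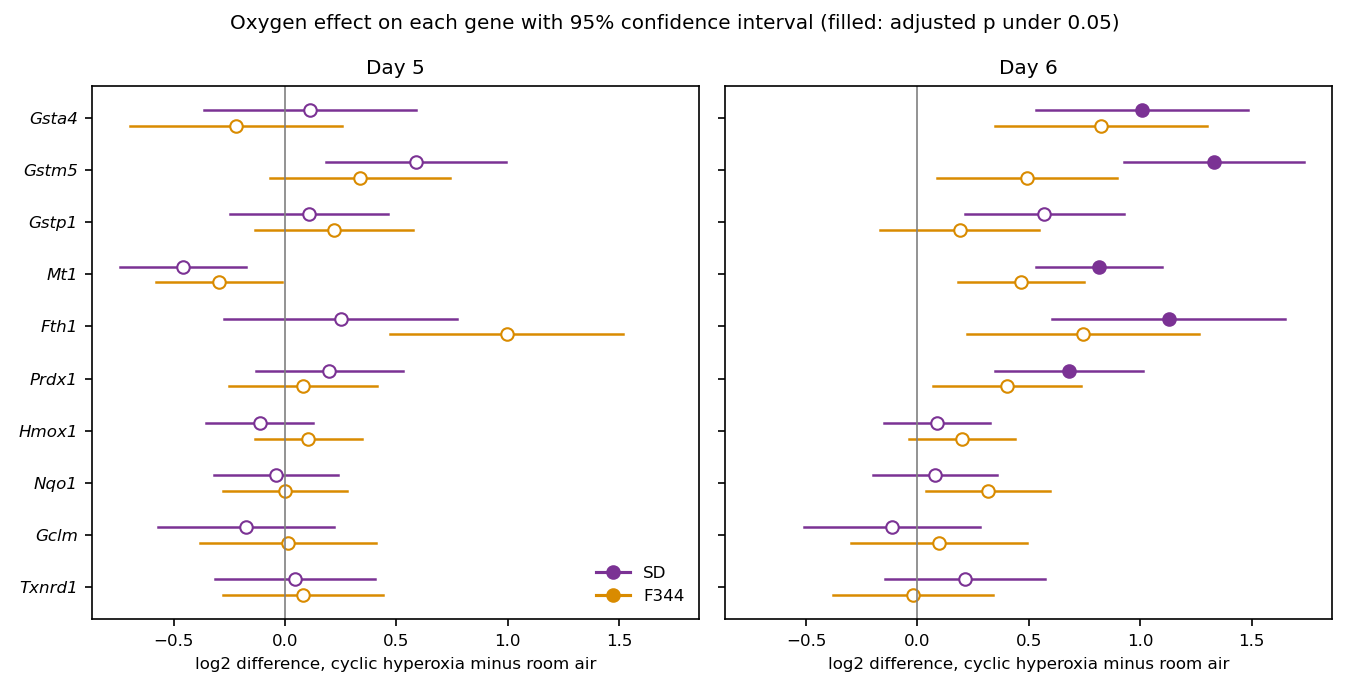
Log2 difference of cyclic hyperoxia minus room air for each gene on day 5 (left) and day 6 (right), SD above F344, with 95% confidence intervals from the limma fit; filled points passed an adjusted p of 0.05. The 5 filled points are SD day 6 values between 0.68 and 1.33, and the day 5 points of Mt1 lie under 0 in both strains.

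On day 5 none of these genes passed. The counts were 0 of 10 in SD (0.0628% of all genes called), 0 of 10 in F344 (0.126%) and 0 of 10 over both strains (0.209%), with 2, 2 and 3 members at an unadjusted p under 0.05 by limma. Mt1 lay the other way from day 6. It read 7.85 and 7.69 in SD hyperoxia day 5 pools, against 8.14 and 8.31 in room air, and 8.07 and 8.47 in F344 hyperoxia day 5 pools, against 8.51 and 8.63 in room air. In each strain both hyperoxia arrays were under both room air arrays, with differences of -0.46 in SD (adjusted p = 0.391) and -0.30 in F344 (adjusted p = 0.561).

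Fth1 on day 5 turned on the array of doubtful strain signal. It read 10.87 and 11.34 in F344 hyperoxia pools, against 9.54 and 10.68 in room air, where 9.54 is the replicate 1 array with SD-like probe sets and lies close to the SD room air values of 9.44 and 9.36. The difference was 1.00 (adjusted p = 0.223 by limma). Without that array it was 0.43 (adjusted p = 0.733), and without its partner 1.57 (adjusted p = 0.0014), the only member then called in F344 on day 5. Over both strains the differences were 0.62 for Fth1 and 0.46 for Gstm5, neither called. Without the doubtful array they were 0.34 and 0.28, also not called, and without its partner, so that the doubtful array alone stood for F344 room air day 5, they were 0.91 and 0.65 and both were called.

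Gstm5 read 8.07 and 7.86 in SD hyperoxia day 5 pools, against 7.56 and 7.20 in room air, a difference of 0.59 without overlap that did not pass (adjusted p = 0.419 by limma). In F344 it read 8.15 and 8.38 under hyperoxia, against 7.56 and 8.29 in room air, where the arrays overlapped, and the difference of 0.34 became -0.03 without the doubtful array, which read 7.56. Tested as a difference between strains, the day 5 effect was called for 0 of 10 members, 1 of them (Fth1, -0.75, or -0.18 without the doubtful array) at an unadjusted p under 0.05 by limma, and for 0% of all genes.

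Mt1 was the 1 member called for a change of its oxygen effect between days in SD retinas. The day 6 effect minus the day 5 effect was 1.27 ± 0.19 (SE; adjusted p = 0.0106 by limma), where 0.112% of all genes were called. In F344 it was 0.76 ± 0.19 (SE; adjusted p = 0.0678), with 0 of 10 members called, 2 at an unadjusted p under 0.05 by limma, and 1.02% of all genes called. The SD call was lost without any of 6 arrays, namely either SD hyperoxia array of either day and the replicate 2 arrays of SD room air on day 5 and day 6. In F344, Mt1 was at 0.69 and Gsta4 at 0.72 without the replicate 2 array of hyperoxia day 6 that stood apart, neither called, and at 0.84 and 1.37, both called, without its partner. Without both arrays that stood apart they were at 0.75 and 0.41.

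Hypoxia-responsive genes moved in the same comparison in SD: 8 of 19 were called, all with a higher oxygen effect on day 6 than on day 5. The median was 0.94 over the 19. Egln3, a HIF prolyl hydroxylase, differed by 2.05 and the angiogenic factor Vegfa by 1.24. Both lay below room air on day 5 and above it on day 6. On SD day 5 arrays Egln3 read 4.87 and 5.09 under hyperoxia, against 6.28 and 6.07 in room air. On SD day 6 arrays it read 6.86 and 7.12, against 6.02 and 6.24. Vegfa read 7.92 and 8.21, against 9.14 and 9.01, on day 5. On day 6 it read 9.19 and 9.29, against 9.08 and 8.93. The part of the hypoxia-responsive genes in the Mt1 result was not tested.

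Comparing days within hyperoxia, over both strains, Mt1 was 1.07 ± 0.09 (SE) higher on day 6 than on day 5 (adjusted p = 6.88e-06 by limma), and higher on each of the 4 day 6 arrays than on any day 5 array. Fth1 was 0.65 ± 0.17 (SE) higher (adjusted p = 0.0434), so that 2 of 10 were called, against 4.80% of all genes. The Fth1 call was lost without either array of SD hyperoxia day 5 or 6, SD room air day 5 or F344 room air day 6, without replicate 1 of F344 hyperoxia day 5 and without replicate 2 of F344 hyperoxia day 6, where it was 0.64 (adjusted p = 0.0906 by limma). Leaving out the replicate 1 array of F344 hyperoxia day 6, so that the array that stood apart remained, gave 5 calls. Leaving out the doubtful array of F344 room air day 5, which enters only through the shared spread, gave 3, with Gstm5 at 0.40 (adjusted p = 0.033 by limma). Over the same interval 9 of 11 cell cycle genes were called lower (median -1.13 over the 11). Rod markers were called higher for 8 of 10 (median 0.53). Of 8 erythroid markers 2 were called higher, Hbb by 1.16 and Hbb-b1 by 1.03 (median 0.04). The part of these lists in the Mt1 and Fth1 results was not tested. In room air, day 6 minus day 5 was called for 0 of 10 members, 1 at an unadjusted p under 0.05 by limma (Gsta4, -0.47), and for 3.00% of all genes. Fth1 was at 0.33. Without the doubtful array of F344 room air day 5, Fth1 was at 0.05 and Gsta4 at -0.31, neither called. Without its partner they were at 0.62 and -0.62 and both were called.

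Strain separated Fth1 more than any other member. In room air over both days, SD minus F344 was -1.07 ± 0.17 (SE; adjusted p = 0.00143 by limma), with SD arrays at 9.44, 9.36, 9.29 and 9.46 and F344 arrays at 9.54, 10.68, 10.74 and 10.87. The strains did not overlap, and the lowest F344 value was that of the doubtful array. Without it the difference was -1.35 (adjusted p = 5.31e-06). Under hyperoxia SD arrays read 9.69, 9.62, 10.52 and 10.48 and F344 arrays 10.87, 11.34, 11.54 and 11.56, a difference of -1.25 ± 0.17 (SE; adjusted p = 0.000487), which passed under each of the 26 alternatives tried, from -1.04 to -1.37.

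In room air, 3 of the 10 genes were called lower in SD than in F344, against 9.35% of all genes called. Beside Fth1 these were Gstm5, at -0.58 ± 0.13 (SE; adjusted p = 0.0139 by limma), and Mt1, at -0.41 ± 0.09 (SE; adjusted p = 0.0140). Only Fth1 remained without the replicate 2 array of F344 room air day 5 or the replicate 1 array of F344 room air day 6. Without both arrays that stood apart Gstp1 was called too, at -0.40 (adjusted p = 0.0349 by limma), against -0.33 with them. Gstm5 was also lost without the replicate 2 array, and Mt1 without the replicate 1 array, of SD room air day 5. Under hyperoxia 2 of 10 were called lower in SD, against 8.96% of all genes, and the second, Mt1 at -0.31, was borderline (adjusted p = 0.04996 by limma) and lost under 23 of 26 alternatives, at -0.28 without the replicate 2 array of F344 hyperoxia day 6. Gstm5 did not differ there by more than the spread, at -0.04, with a 95% confidence interval of -0.33 to 0.25, or 0.02 without the same array.

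Rod markers were called higher in SD than in F344 room air retinas for 5 of 10 genes (median 0.61), led by Gnat1 at 1.11. Cell cycle genes were called lower for 3 of 11 (median -0.37). Of all genes 9.35% were called in that comparison. Summed rod marker levels, on the linear scale, ranged from 11177 to 15504 on SD room air arrays and from 8127 to 11608 on F344 room air arrays. Their part in the strain differences of Fth1, Gstm5 and Mt1 was not tested.

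Ribosomal protein transcripts moved with the members. Of 69 cytosolic ribosomal protein genes, a list added after the data were seen, 20 were called higher under hyperoxia in SD on day 6 (median 0.45), 35 over both strains on day 6 (median 0.38), and 26 were called lower in SD than in F344 in room air (median -0.28). Of all 14324 genes, 2.23% were called higher under hyperoxia in SD on day 6 and 4.01% over both strains on day 6. In room air 764 were called lower in SD than in F344. The median of the ribosomal genes in F344 on day 6 was 0.28. The mean level of the 69 was 10.28 and 10.26 in SD hyperoxia day 6 pools, against 9.79 and 9.85 in room air. In F344 day 6 pools it was 10.27 and 10.52 under hyperoxia, against 10.11 and 10.15 in room air. On day 6 this mean was higher under hyperoxia than in room air in both strains, as were the means of Gsta4, Gstm5, Mt1, Fth1 and Prdx1.

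With that mean as a covariate, which is itself measured on these arrays and higher under hyperoxia, 0 of the 10 genes and 0 of all genes were called in SD on day 6 or over both strains on day 6. The fitted day 6 differences over both strains remained above 0 for Gstm5 at 0.52, Gsta4 and Fth1 at 0.41, Mt1 at 0.33 and Prdx1 at 0.23, and Gstp1 was at -0.17. The SD calls for the Mt1 day difference (1.01, adjusted p = 0.164 by limma) and for the strain differences in room air were lost too. What passed with the covariate was the strain difference of Fth1 under hyperoxia, -1.04 (adjusted p = 0.00831), and the day difference of Mt1 under hyperoxia, 0.96 (adjusted p = 3.84e-05).

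**Figure D4:**
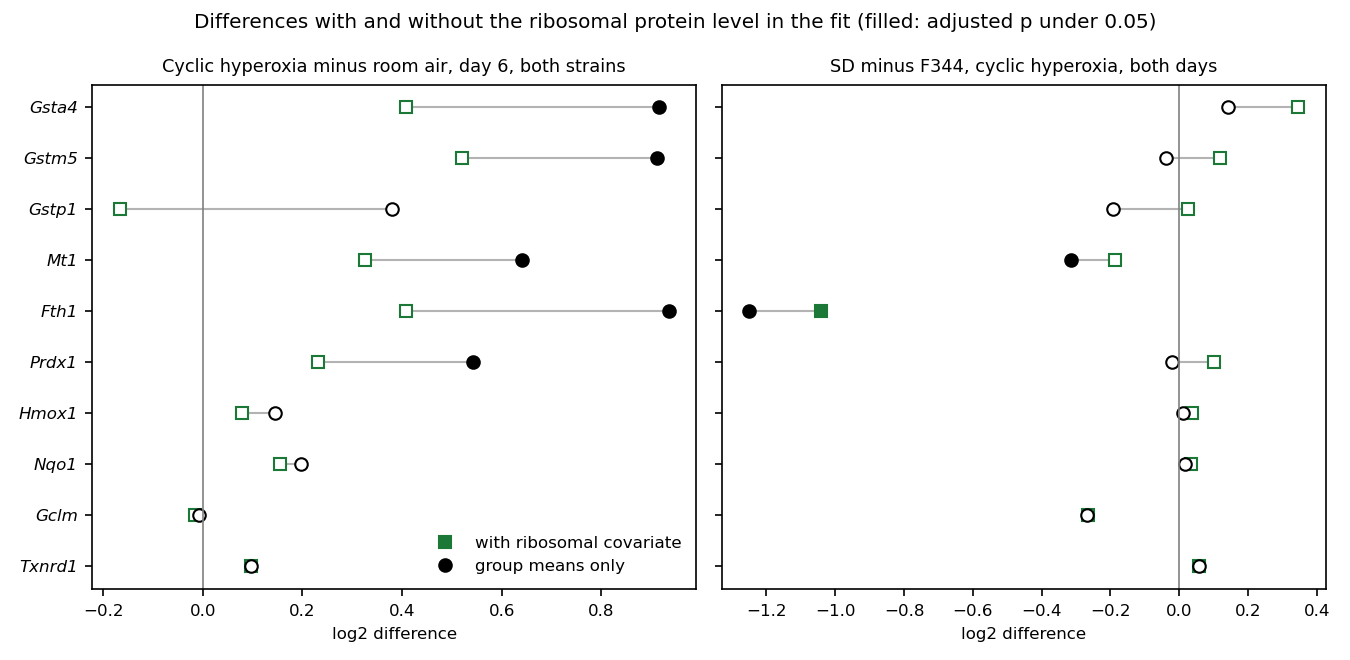
Log2 differences of the 10 genes with the mean ribosomal protein level in the fit (squares) and with group means only (circles), for cyclic hyperoxia minus room air on day 6 over both strains (left) and SD minus F344 under cyclic hyperoxia (right); filled symbols passed an adjusted p of 0.05. On the left no square is filled, and on the right the square of Fth1 at -1.04 is.

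A dimmer probe set was present for 4 members. Tested among all probe sets, the dimmer sets of Gsta4, Mt1, Fth1 and Prdx1 differed under hyperoxia in SD on day 6 by 0.92, 0.89, 0.98 and 0.76, against 1.01, 0.82, 1.13 and 0.68 for the sets used, and each passed. The dimmer Mt1 set differed by 1.33 in the SD day difference, and the dimmer Fth1 set by -1.10 between SD and F344 under hyperoxia, and both passed. Calls did not pass with the dimmer set for Fth1 on day 6 against day 5 under hyperoxia (0.57, adjusted p = 0.0812 by limma) and for Mt1 in SD against F344 under hyperoxia (-0.26, adjusted p = 0.130). Tested among all probe sets, the sets used did not pass there either (adjusted p = 0.0687 for Fth1 and 0.0634 for Mt1 by limma). The RefSeq table names 3 pseudogenes of Gsta4, 3 of Gstp1, 3 of Mt1, 5 of Fth1 and 7 of Prdx1. Whether probes of these sets also read such copies, or close paralogs of the transferases, was not tested, so these levels are uncertain in that respect.

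Other genes of the same pathways, in 7 lists, were read in the day 6 comparison. In 5 of the 7 lists the share called was above the 6.74% of all genes, at 11.5% to 21.4%, and in 2 it was below, at 5.56% and 4.35%, while the lists' medians lay between -0.11 and 0.10. The higher shares rest on 2 to 4 called genes a list. Of all 14324 genes 8234 lay over the floor, and the lists were not compared with genes of like level. Over both strains, 1 of 18 other glutathione transferases measured was called, Gstt2 at 0.52, and the median of the 18 was 0.10. Of 21 genes for glutathione synthesis, reduction and peroxidases, 3 were called higher and 1 lower. Those higher were the peroxidases Gpx7 (0.49) and Gpx8 (0.41) of the endoplasmic reticulum and the S-formylglutathione hydrolase Esd (0.45). The glutathione conjugate exporter Abcc1 (-0.47) was the 1 called lower. The median over all genes was -0.01.

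Among metal handling genes, 3 of 14 in the metallothionein and zinc list were called higher on day 6 over both strains. Each is a metal carrier: Mt2A (0.38), the copper chaperone of superoxide dismutase Ccs (0.52) and the copper chaperone Atox1 (0.55). The median of the 14 was -0.11. Of 26 iron and haem genes, 2 were called higher, the haem synthesis enzyme Urod (0.54) and the biliverdin reductase Blvra (0.47). The 1 called lower was Aco1 (-0.42), the cytosolic aconitase that serves as iron regulatory protein when it lacks its iron-sulphur cluster. In SD alone the iron exporter ferroportin, Slc40a1, was lower, at -0.66 (adjusted p = 0.0294 by limma), at levels of 4.51 and 4.62 under hyperoxia, against 5.11 and 5.33 in room air, all under the floor.

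Of 19 other peroxiredoxin, thioredoxin and glutaredoxin genes, 4 were called higher over both strains on day 6. They were the mitochondrial peroxiredoxins Prdx3 (0.40) and Prdx5 (0.54), thioredoxin Txn1 (0.43) and the iron-sulphur glutaredoxin Glrx3 (0.49). Of 12 NRF2 regulators, Rbx1, a ring subunit of the ubiquitin ligase that KEAP1 serves, was called higher (0.68). The small MAF partner Mafg was called lower (-0.40). Of 23 further NRF2 targets and NADPH supply genes, 1 was called, the pentose phosphate enzyme Taldo1 at 0.47, with a median of 0.06.

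Between strains, Atox1 and Glrx3 were lower in SD in both exposures, at -0.62 and -0.44 in room air and at -0.72 and -0.52 under hyperoxia. The ferroxidase Heph was lower in SD in room air (-0.79), and the NRF2 repressor Keap1 was too (-0.29). The NRF2 target Pir, an iron-binding nuclear protein, was higher in SD by 0.80 in room air and by 0.61 under hyperoxia. It was not alone in that direction. Under hyperoxia Gpx7 read 7.72, 7.46, 7.49 and 7.51 on SD arrays, against 7.06, 7.06, 6.89 and 7.29 on F344 arrays. The genes named are examples, and counts by direction are not given here. Between strains 9.35% of all genes were called in room air and 8.96% under hyperoxia.

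Markers of other cell types were read beside the day 6 oxygen effects. Over both strains, 3 of 9 endothelial markers were lower under hyperoxia (Tek -0.56, Tie1 -0.46 and Adgrl4 -0.41; median -0.29), and 2 of 11 microglia and macrophage markers were higher (C1qa 0.53 and Aif1 0.29; median 0.11). Summed endothelial marker levels, on the linear scale, were 304 to 307 in SD hyperoxia day 6 pools, against 394 to 413 in room air, and 305 to 401 in F344 hyperoxia day 6 pools, against 376 to 381 in room air, with 1 of the 9 over the floor. Summed microglia marker levels were 543 to 585 in SD hyperoxia day 6 pools, against 504 to 547 in room air, and 489 to 564 in F344 hyperoxia day 6 pools, against 487 to 503 in room air. Of 9 Muller glia markers 2 were called higher over both strains (Dbi 0.42 and Car2 0.28, with a median of 0.02).

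Of 8 astrocyte markers, 4 of them over the floor, 1 was called lower over both strains on day 6 (the glutamate transporter Slc1a2, -0.31, with a median of -0.08). Their summed levels were 1129 to 1197 in SD hyperoxia day 6 pools, against 1377 to 1384 in room air, and 1077 to 1320 in F344 hyperoxia day 6 pools, against 1351 to 1416 in room air. The 13 amacrine, horizontal and ganglion cell markers had a median of -0.10, with sums of 3494 to 3641 in SD hyperoxia day 6 pools, against 3766 to 4181 in room air, and 3375 to 3793 in F344 hyperoxia day 6 pools, against 3856 to 3975 in room air. Both sums were thus lower under hyperoxia in each strain, without overlap. Slc1a2 alone made up the larger part of the astrocyte sum on each of these arrays, so that sum mainly follows 1 gene. Slc1a2 read 9.50 and 9.59 in SD hyperoxia day 6 pools, against 9.93 and 9.84 in room air. In F344 day 6 pools it read 9.83 and 9.56 under hyperoxia, against 9.94 and 10.01 in room air. The 8 erythroid markers, 2 of them over the floor, had a median of 0.05, with sums of 484 to 532 in SD hyperoxia day 6 pools, against 386 to 403 in room air, and 481 to 485 in F344 hyperoxia day 6 pools, against 445 to 483 in room air. The part of these cell types in the members' differences was not tested.

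The genes whose pattern over the 16 arrays was most like that of the 3 members with the widest range were found among 8233 genes above the floor, as a description in which group differences and array quality are shared. Fth1 (group means from 9.38 to 11.55) ran closest to the ribosomal protein gene Rpl9 (Pearson r 0.96, Spearman rho 0.93), Atox1 (0.96 and 0.93) and Ly6h (0.96 and 0.91). Mt1 (7.77 to 9.15) ran closest to Igfbp2 (0.92 and 0.91), Mif (0.91 and 0.90) and the hypoxia-linked cytochrome oxidase subunit Cox4i2 (0.90 and 0.94). Gstm5 (7.29 to 8.62) ran closest to Ndufa9 (0.96 and 0.93), Polr2d (0.95 and 0.94) and Ssna1 (0.95 and 0.92).

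Ordered by group mean, Fth1 was highest in F344 hyperoxia day 6 (11.55 ± 0.01), F344 hyperoxia day 5 (11.11 ± 0.34) and F344 room air day 6 (10.81 ± 0.09), and lowest in SD room air on day 6 (9.38 ± 0.12) and day 5 (9.40 ± 0.06; SD, n = 2 each). Its arrays overlapped between F344 hyperoxia day 5 and F344 room air day 6 and between the SD room air days. Mt1 was highest in F344 (9.15 ± 0.10) and SD (9.03 ± 0.05) hyperoxia day 6 and lowest in SD hyperoxia day 5 (7.77 ± 0.12; SD, n = 2 each). Gstm5 was highest in SD hyperoxia day 6 (8.62 ± 0.09) and lowest in SD room air day 6 (7.29 ± 0.04; SD, n = 2 each), so that its widest gap among the 8 groups was the oxygen contrast in SD retinas on day 6.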

How the data were processed

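Retinal RNA pools on 16 single-colour Affymetrix gene arrays, 8 groups of 2, were analysed from the deposited log2 expression values, which the authors made with Partek 6.4 and RMA, per the submitters' processing notes. RMA corrects background, equalises array distributions and summarises probe sets, so a change common to most transcripts would be removed. Scanner files were not used here. Arrays were labelled without ribosomal RNA reduction, per the labels' protocols. Of 27342 probe sets, 15097 had 1 symbol in the platform annotation, 323 several and 11922 none listed; 15067 were matched by Entrez identifier to RefSeq GRCr8. For 499 genes with several sets the brightest on average was used. All 14324 genes were fitted with limma 3.58.1 (R 4.3.3) on group means, 8 residual and 7.41 prior degrees of freedom, with Benjamini-Hochberg adjustment at 0.05, after a test on simulated data. The number of arrays limits the precision. Members and lists were chosen with earlier results of these data known. Named were all members, up to 4 called genes of each pathway list and comparison, called marker genes where a member was called, and 3 genes of like pattern for the 3 members of widest range. Replicate numbers were not treated as pairs, since nothing in the labels ties them to a litter or batch. Deviations of same-numbered arrays correlated between -0.287 and 0.519 over 28 pairs of groups, 8 of them over 0.1. The highest was between SD room air day 5 and day 6. Whether some groups share a litter or batch by number was not tested. Alternatives covered the spread, probe set, filter, centring, weights, replicate block and each array left out.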

Additional observations from a re-analysis of the deposited data

Results flagged for a closer look

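The oxygen effect on Mt1 differed between days. In SD retinas the day 6 effect minus the day 5 effect was 1.27 on the log2 scale, past the adjusted threshold of the limma test of that difference. In F344 retinas the same difference was 0.76; it did not pass (adjusted p = 0.0678 by limma), and is listed because every hyperoxia array lay above the room air arrays on day 6 and below them on day 5.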

How the results depend on the processing

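With 2 pools a group, calls of members moved with single arrays and with the ribosomal covariate; no difference reversed past the threshold. Under the leave-one-out fits the members called ranged from 0 to 6 for the oxygen effect in SD on day 6, 0 to 3 in F344 on day 6, 3 to 6 over both strains on day 6, 0 to 1 in F344 and 0 to 2 over both strains on day 5, 0 to 1 and 0 to 2 for the day difference of the oxygen effect in SD and F344, 1 to 3 and 1 to 2 for SD minus F344 in room air and hyperoxia, and 0 to 2 and 1 to 5 for day 6 minus day 5 in room air and hyperoxia; the causes were not tested. With the mean ribosomal protein level as a covariate, an alternative chosen after seeing the data, the count was 0 for the oxygen effect in SD and over both strains on day 6, for the SD day difference and for SD minus F344 in room air, and 1 for SD minus F344 and for day 6 minus day 5 under hyperoxia. SD minus F344 under hyperoxia also gave 1 with the replicate block, with only the compared arrays, with trended robust moderation, with median centring, with every probe set tested, with the dimmest probe set, with array weights and without the 2 arrays that stood apart, a choice made after seeing them. Day 6 minus day 5 under hyperoxia gave 1 with every probe set tested or the dimmest. The replicate block gave 5, 5, 1, 3 and 2 calls where it changed no count: SD and both strains on day 6, the SD day difference, SD minus F344 in room air and day 6 minus day 5 under hyperoxia. With dim genes filtered out, Hmox1 and Nqo1 had no value. Signal under the floor limits what these 2 genes can show.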
